A study of Mus musculus with 3 samples.

Results

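*Gm10260*, *Gm11361*, *Gm8797*, *Gm12166*, *BC023719* and *1600014C10Rik* are 6 of the 31053 mouse genes counted by single-cell sequencing of the iridocorneal angle and corneal limbus, the ring of tissue where cornea, iris and sclera meet. They were chosen by their low UMI counts in the library from *Angpt1*ΔNC eyes, among genes with provisional symbols, so their lower level in that library is given below as a description without a test. Single-cell suspensions were sequenced in 3 droplet libraries, 2 from control mice (*Angpt1* flox/flox; controls 1 and 2) and 1 from *Angpt1*ΔNC mice (*Angpt1* flox/flox;Wnt1Cre+). All mice were 6 weeks old, carried the floxed *Angpt1* allele on both chromosomes and came from a mixed background crossed for 2 generations to ICR. They were pooled at 2 to 3 animals per library, and the pools were described as holding both sexes. Wnt1Cre deletes the floxed allele in cells of the neural crest lineage, which in the eye include the trabecular meshwork, the stroma and the pericytes, while surface epithelium, endothelium, retinal pigment epithelium and immune cells have other origins. The comparison therefore addressed whether these transcripts were lost to the same degree in cells inside and outside the lineage in which Cre acts.

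The libraries held 76981606, 80346829 and 66484181 unique molecular identifiers (UMIs, each standing for 1 captured transcript) in 9076, 10160 and 6772 cells that the authors kept and placed in 35 labelled groups. Of these labels, 14 were taken as neural crest (TM_1 to TM_11, 9, 13 and 20), 15 as not neural crest and 6 as undetermined. The summed keratin markers of the epithelial labels 2 to 5 lay between 20792 and 25401 CPM (UMIs per 1000000 UMIs of the cells summed), against 46.7 to 65.4 in neural crest cells. *Angpt1*, the targeted gene, was at 102 and 88.5 CPM in neural crest cells of the controls and at 0.734 in those of *Angpt1*ΔNC. Kept cells of different libraries shared 13 to 25 barcodes per pair of libraries. The pools were described as mixed in sex, but *Xist*, expressed from the inactive X chromosome of females, was at 0.0390 and 0.0249 CPM in the controls and at 652 in *Angpt1*ΔNC, which held 3861 female-typed and 1990 male-typed cells. Because *Angpt1*ΔNC is a single library, genotype and pool cannot be told apart.

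Mammalian genomes carry many copies of expressed genes that arose when a messenger RNA was copied back into DNA. Such copies usually lack introns, differ from their source gene at few bases and are often listed as pseudogenes or as predicted genes. A sequencing read from the source gene and one from the copy can be told apart only where it covers a base that differs.

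By sequence, 5 of the 6 genes had a similar gene on the sense strand, at 90% identity or more over at least 100 bases. *Gm10260* (GRCm38 chr13:97760072-97760632, minus strand) and *Gm11361* (chr13:28257528-28258134, plus strand) are single-exon copies of *Rps18*, which encodes a protein of the small ribosomal subunit, and RefSeq lists both as pseudogenes. *Gm10260* was 99.1% identical to *Rps18* (chr17:33951999-33956001, minus strand) over 545 bases, with 5 substitutions, and *Gm11361* was 99.3% identical over 540 bases, with 4. Counted from the 5′ end of the *Rps18* transcript, the *Gm10260* substitutions are T243C, A394C, G428A, G488A and G534C, and those of *Gm11361* are C54T, T68A, A228C and A394C. The 120 coding bases below, from GENCODE M21, are shown because they hold A394C, which both copies share, and 2 bases that are particular to *Gm10260*, G428A and G488A. They do not hold G534C, which lies nearer the 3′ end of *Gm10260*. The last 300 bases hold 4 substitutions in *Gm10260* and 1 in *Gm11361*. Capitals mark positions in *Rps18* at which a copy differs and, in the copies, the differing base. The *Gm10260* stretch lies at chr13:97760143-97760262 and the *Gm11361* stretch at chr13:28257962-28258081.
Rps18: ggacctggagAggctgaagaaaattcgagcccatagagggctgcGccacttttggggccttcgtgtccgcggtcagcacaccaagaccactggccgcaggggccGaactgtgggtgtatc
Gm10260: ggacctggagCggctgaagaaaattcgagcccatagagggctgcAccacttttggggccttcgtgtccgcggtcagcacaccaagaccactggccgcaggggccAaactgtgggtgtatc
Gm11361: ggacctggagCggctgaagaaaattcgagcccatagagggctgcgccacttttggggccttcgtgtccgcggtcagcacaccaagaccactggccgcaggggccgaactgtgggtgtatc

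*Gm8797* (chr3:5750806-5751295, plus strand) has 1 exon and is a copy of *Ubb*, a gene of the polyubiquitin precursor (chr11:62551171-62553213, plus strand). It was 98.2% identical to *Ubb* over 384 bases. The coding stretch at chr3:5750934-5751083 is shown beside that of *Ubb* because it holds all 6 substitutions between them, with the differing bases in capitals.
Ubb: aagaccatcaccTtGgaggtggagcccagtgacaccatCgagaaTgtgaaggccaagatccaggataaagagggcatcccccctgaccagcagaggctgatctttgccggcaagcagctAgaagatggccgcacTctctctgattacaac
Gm8797: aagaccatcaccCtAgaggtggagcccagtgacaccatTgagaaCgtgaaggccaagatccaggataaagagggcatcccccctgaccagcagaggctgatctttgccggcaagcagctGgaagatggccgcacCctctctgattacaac

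*Gm12166* (chr11:46051354-46052321, minus strand) is a copy of *Sft2d1* (chr17:8311102-8327442, plus strand), which encodes a membrane protein of vesicle transport. The transcripts were 99.5% identical over 948 bases and differed by 1 substitution, G277A counted along *Sft2d1*, and by 4 bases in gaps. The 60 coding bases around that substitution (chr11:46052110-46052169 in *Gm12166*) are shown with it in capitals. It lies 785 bases from the 3′ end of *Gm12166*. The last 300 bases hold 0 substitutions, and the difference nearest the 3′ end is a gap 134 bases from it. How many reads covered a difference was not tested.
Sft2d1: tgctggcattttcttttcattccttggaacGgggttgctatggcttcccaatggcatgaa
Gm12166: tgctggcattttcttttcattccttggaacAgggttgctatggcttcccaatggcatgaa

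*BC023719* (chr17:36111426-36117121, plus strand, 2 exons) is a non-coding RNA that the annotation calls antisense, in the region of the *H2-T* genes, which encode non-classical major histocompatibility complex proteins. Its most similar sense transcript, *A930015D03Rik* (chr17:35994453-36038435, plus strand), was 96.4% identical over 871 bases, with 28 mismatches, and *H2-T22* matched it on the opposite strand. A stretch of 160 bases (chr17:36116243-36116402 in *BC023719*) shows 9 of these differences in capitals.
A930015D03Rik: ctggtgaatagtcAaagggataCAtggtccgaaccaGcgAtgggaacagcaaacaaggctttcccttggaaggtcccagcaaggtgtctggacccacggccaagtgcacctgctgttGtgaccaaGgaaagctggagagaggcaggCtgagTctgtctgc
BC023719: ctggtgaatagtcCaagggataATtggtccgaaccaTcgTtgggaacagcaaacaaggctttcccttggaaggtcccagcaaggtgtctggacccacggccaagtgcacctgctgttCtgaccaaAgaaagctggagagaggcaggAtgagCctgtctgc

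*1600014C10Rik* (chr7:38183217-38197568, plus strand) stood apart, as it is a protein-coding gene with 2 to 4 exons per transcript and is the mouse counterpart of human *C19ORF12*, which encodes a mitochondrial membrane protein. No similar sense transcript was found for it. Its only match was *D530033B14Rik*, which overlaps it on the other strand and had 0, 0 and 2 UMIs in control 1, control 2 and *Angpt1*ΔNC. The 6 genes lie on 5 autosomes, and none is on chromosome 15, where *Angpt1* lies.

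Over all kept cells, each of the 6 genes was lower in *Angpt1*ΔNC than in both controls, and 5 of them were below 10% of the control mean (levels are in CPM with exact 95% Poisson intervals, which cover counting error only). Of 8906 genes with at least 500 UMIs in each control, 0.213% were below 10% of the control mean and 57.5% were below both controls. These values selected the genes and carry no test.

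*Gm10260* was at 528 (523 to 533) and 642 (636 to 648) in the controls and at 2.17 (1.83 to 2.55) in *Angpt1*ΔNC, from 40663, 51579 and 144 UMIs. *Gm11361* was at 121, 103 and 7.63, from 9345, 8283 and 507 UMIs. Both copies of *Rps18* therefore had far less in *Angpt1*ΔNC than the difference between the controls, and *Gm10260* was the lower in relation to its controls (0.370% against 6.79% of the control mean).

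*Gm8797*, the *Ubb* copy, was at 229 and 163 in the controls and at 68.4 (66.5 to 70.5) in *Angpt1*ΔNC. It showed the smallest loss, to 34.9% of the control mean, and also the widest gap between the controls, with control 2 at 0.709 times control 1. *Gm12166* was at 24.9 and 18.2 in the controls and at 1.91 (1.59 to 2.27) in *Angpt1*ΔNC. *BC023719* was at 46.6 and 46.4 in the controls, which did not differ beyond counting error, and at 0.406 (0.268 to 0.591) in *Angpt1*ΔNC, where the 27 UMIs fell in 27 different cells. *1600014C10Rik* was at 137 and 159 in the controls and at 4.06 (3.59 to 4.58) in *Angpt1*ΔNC.

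**Figure D1:**
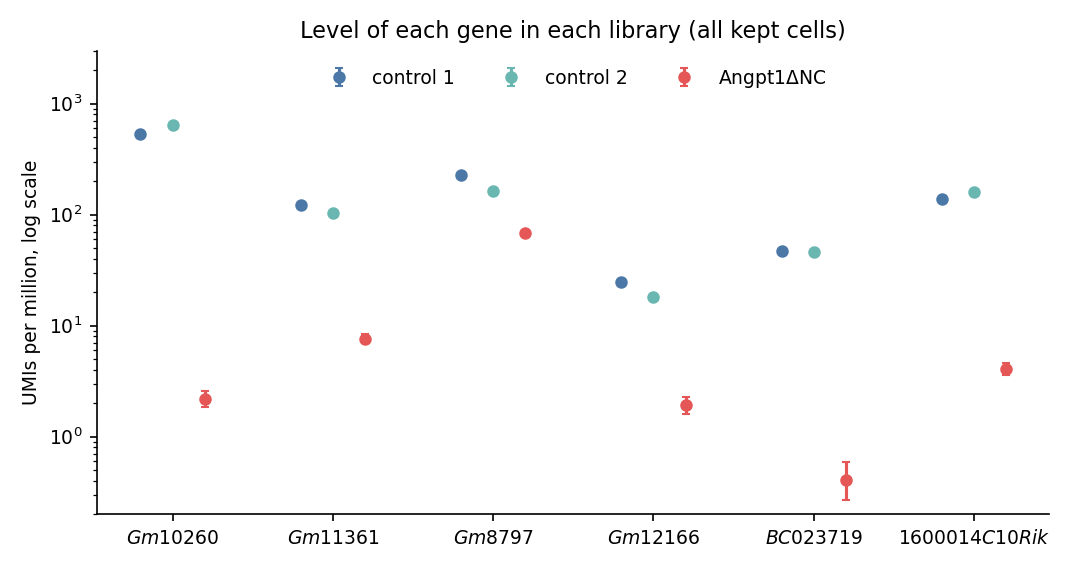
Level of each of the 6 genes in CPM (log axis) in control 1, control 2 and *Angpt1*ΔNC over all kept cells; points are single libraries and bars exact 95% Poisson intervals. The *Angpt1*ΔNC point is the lowest for every gene, from 68.4 for *Gm8797* down to 0.406 for *BC023719*.

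The cells in which the transcripts were counted differed in the same way. *Gm10260* had at least 1 UMI in 77.9% and 84.5% of control cells and in 2.05% of *Angpt1*ΔNC cells, and 97.1% of the latter had a single UMI. *Gm8797* was found in 71.5% and 61.7% of control cells and in 41.4% of *Angpt1*ΔNC cells. *1600014C10Rik* was found in few cells even in the controls, 10.3% and 9.15%, but with up to 213 and 298 UMIs in a cell, against at most 5 in the 3.38% of *Angpt1*ΔNC cells that held it. After each cell was thinned to 1000 UMIs, the shares of *Gm10260* were 29.5%, 35.6% and 0.177%, and those of *1600014C10Rik* 3.31%, 3.89% and 0.384%.

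The low level was also present in both sexes and in cells that the authors did not keep. In *Angpt1*ΔNC, *Gm10260* was at 2.26 in female-typed and 1.94 in male-typed cells, against 557 and 660 in male-typed cells of the controls. *BC023719* was at 0.286 in female-typed and 0.616 in male-typed *Angpt1*ΔNC cells, against 44.2 and 45.7 in male-typed control cells. *Gm8797* was at 63.6 and 72.0 in these *Angpt1*ΔNC cells, against 219 and 158. In called cells that were not kept, *Gm10260* was at 412, 474 and 1.43, *BC023719* at 46.6, 39.8 and 0.238, and *1600014C10Rik* at 73.7, 121 and 3.05 in control 1, control 2 and *Angpt1*ΔNC.

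Within the neural crest lineage (4140, 4800 and 2524 cells) and outside it (2617, 2683 and 2187 cells), all 6 genes were again lower in *Angpt1*ΔNC than in both controls, as were 32.8% of the 8906 genes. Relative to the pooled controls, *Gm10260* was at 0.496% (0.334 to 0.708, exact 95% interval of the ratio of counts) in neural crest cells and at 0.294% (0.236 to 0.361) in the others. In neural crest cells that ratio came from 276 and 352 CPM in the controls and 1.57 in *Angpt1*ΔNC, and outside the lineage from 828, 1084 and 2.79. *Gm11361* was at 7.03% (5.58 to 8.76) and 6.07% (5.45 to 6.75), *Gm8797* at 37.3% (35.5 to 39.1) and 34.2% (32.2 to 36.2), and *Gm12166* at 9.33% (6.17 to 13.6) and 7.83% (6.06 to 9.96), each with the neural crest value first. For each of these 4 transcripts the intervals of the lineages overlapped, which is no test of a difference.

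The difference between the lineages was tested for every gene as the interaction of lineage and genotype in edgeR's quasi-likelihood test on 6 sums of counts, with the library as a block and Benjamini-Hochberg adjustment over 15421 genes. It was called (adjusted p below 0.05) for 31 genes, or 0.201% (0.110% higher and 0.0908% lower in neural crest), and for 1 of the 6 genes described here, higher. On the log2 scale, the ratio of *Angpt1*ΔNC to control in neural crest minus that in other cells was 0.64 (SE 0.241) for *Gm10260*, with adjusted p = 0.414. It was 0.06 (SE 0.203) for *Gm11361*, −0.07 (SE 0.173) for *Gm8797* and 0.11 (SE 0.359) for *Gm12166*, with adjusted p of at least 0.923 in edgeR. A difference was not called for these 4 genes, which does not show that the losses are equal. For *Gm10260* the unadjusted p was 0.0421 in edgeR. Its value stayed positive in every alternative fit, from 0.62 with no filter on low counts to 0.95 for TM1 to TM11 against surface epithelium, and was called in none. With each cell thinned to 1000 UMIs, which was not fitted, the order was reversed. *Gm10260* then stood at 0% of control in neural crest and at 0.463% in other cells. With 1 degree of freedom left, the test takes the lineages within the *Angpt1*ΔNC library to vary as they do within the controls.

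*BC023719* differed in a way that counts limit. In neural crest cells it was at 72.6 and 67.7 CPM in the controls and at 0.892 in *Angpt1*ΔNC (17 UMIs), which is 1.28% (0.742 to 2.04) of the pooled controls. Outside the lineage it had 856 and 732 UMIs in the controls and 0 in *Angpt1*ΔNC, at most 0.481% of the pooled controls by the exact interval. The interaction was not called in edgeR (adjusted p = 0.121), and its fitted size is no estimate because 1 sum is 0. The remaining 10 UMIs of *Angpt1*ΔNC fell in the undetermined labels 17 and 18, and 27 of the 35 labels held none. The highest control means of this RNA, 145 and 143 CPM, were in labels 18 and TM_8.

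**Figure D2:**
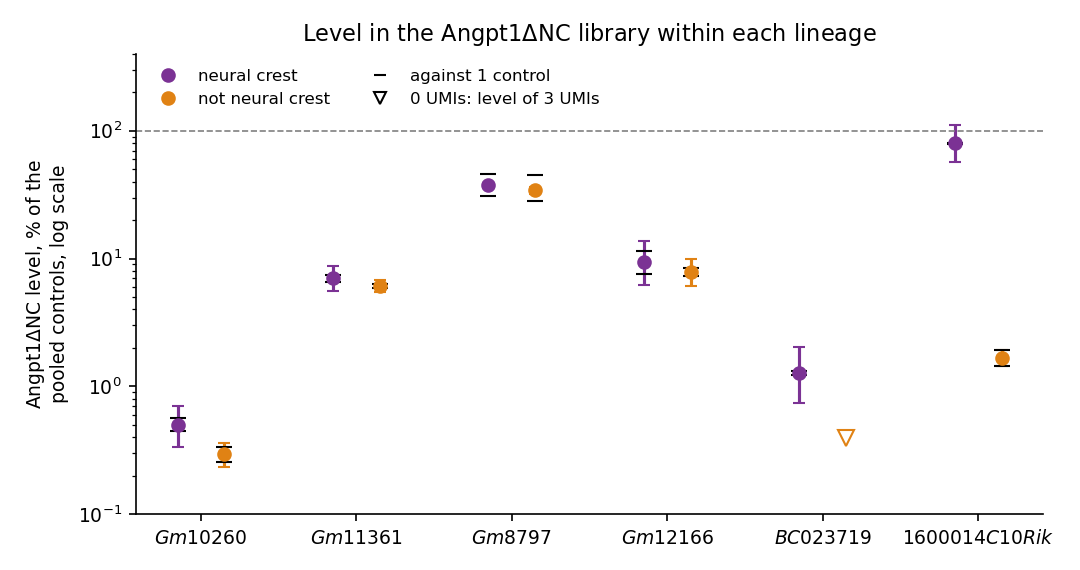
Level of each gene in *Angpt1*ΔNC as a percentage of the pooled controls (log axis) in neural crest cells and in cells outside that lineage; bars are exact 95% intervals of the counts, black ticks the percentage against each control alone, the open triangle the level that 3 UMIs would give where none was counted, and the dashed line 100%. The lineages lie close together for *Gm11361*, *Gm8797* and *Gm12166* and far apart for *1600014C10Rik*, at 79.6% and 1.67%.

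*1600014C10Rik* was the gene for which the interaction was called, and it was also the gene that neural crest cells hardly held in any library. In surface epithelium, labels 2 to 5, it was at 436 and 599 CPM in the controls and at 6.15 in *Angpt1*ΔNC, 1.19% of the control mean. In neural crest cells it was at 3.21 and 3.13 in the controls and at 2.52 in *Angpt1*ΔNC, from 81, 96 and 48 UMIs, or 79.6% (56.6 to 110) of the pooled controls. The interaction was 5.43 on the log2 scale (SE 0.318, adjusted p = 0.00953 in edgeR), and without the library block its adjusted p was 0.110. With each cell thinned to 1000 UMIs the percentages were 35.1% in neural crest and 4.11% in other cells. Over all cells outside the neural crest the gene stood at 1.67% (1.44 to 1.93) of the pooled controls, but 10315 of the 10389 UMIs of control 1 and 12509 of the 12611 of control 2 there were from surface epithelium. The interaction thus set epithelium against cells with little of the transcript, in which a loss could hardly be measured, and does not show that the loss follows the lineage. The gene was chosen for its loss over all kept cells, and that choice largely set the ratio outside the lineage. The test is therefore not independent of the choice. Outside both the lineage and the surface epithelium, endothelium stood at 58.4% (14.6 to 173) of the pooled controls and retinal pigment epithelium at 53.9% (6.29 to 210). Immune cells stood at 62.8% (38.9 to 98.1) and ciliary epithelium, label 7, at 33.1% (6.25 to 113).

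Outside surface epithelium the controls had far less of the transcript. Endothelium had 4.30, 3.26 and 2.18 CPM in control 1, control 2 and *Angpt1*ΔNC, from at most 11 UMIs in a library, and the pigment cells of label 9 had 2.84, 4.46 and 5.99. Immune cells of labels 22 to 25 together had 6.35, 12.1 and 6.12 and were uneven, with label 22 at 69.3, 50.1 and 17.3 (16, 21 and 6 UMIs) and label 25 at 22.5, 38.1 and 10.9 (2, 6 and 1 UMIs). Both of these labels were lower in *Angpt1*ΔNC, on few UMIs. The summed keratin markers, which are made by epithelium, were at 59.4, 46.7 and 65.4 CPM in neural crest cells, and the part of free RNA in the 3.21, 3.13 and 2.52 CPM was not tested. In the epithelium itself the same keratins were at 25401, 22630 and 20792, so keratin transcripts were abundant in these labels in every library.

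**Figure D3:**
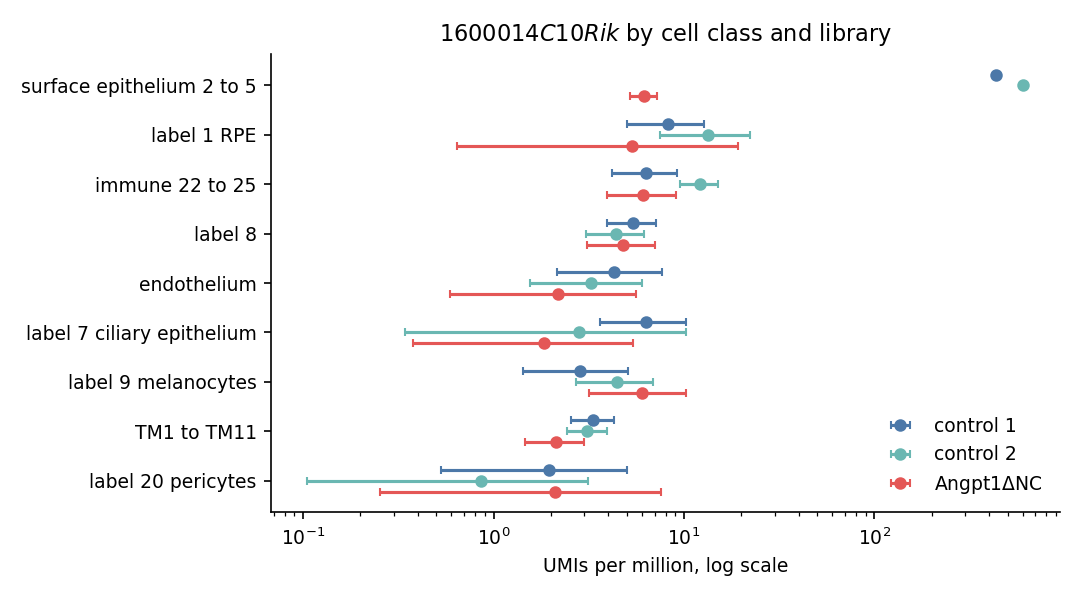
Level of *1600014C10Rik* in CPM (log axis) by cell class, for control 1, control 2 and *Angpt1*ΔNC, with exact 95% Poisson intervals of the counts. The controls stand at 436 and 599 in surface epithelium and the *Angpt1*ΔNC library at 6.15, while no other class plotted has a point above 13.4 (labels 22 to 25 are pooled).

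Label by label, *Gm10260* and *Gm8797* were lower in *Angpt1*ΔNC than in both controls in all 35 labels, and *Gm11361*, *Gm12166* and *BC023719* in 34, the exception for each being LEC, which held 3 and 1 cells in the controls. Of the 8906 genes, 0.348% were lower in at least 34 labels and 0.101% in all 35, and the median gene was lower in 13. *1600014C10Rik* was lower in 22 labels. The share that remained could be read where counts allowed. Over labels with at least 100 control UMIs, *Gm10260* lay between 0 and 1.11% of the control mean (34 labels), *Gm8797* between 29.2 and 60.5% (31 labels) and *Gm12166* between 5.53 and 10.5% (8 labels). For *Gm11361* the range was 0 to 16.1% over 28 labels. Its medians were 6.26% in 12 neural crest labels and 5.62% in 11 labels outside the lineage, with undetermined labels in neither.

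**Figure D4:**
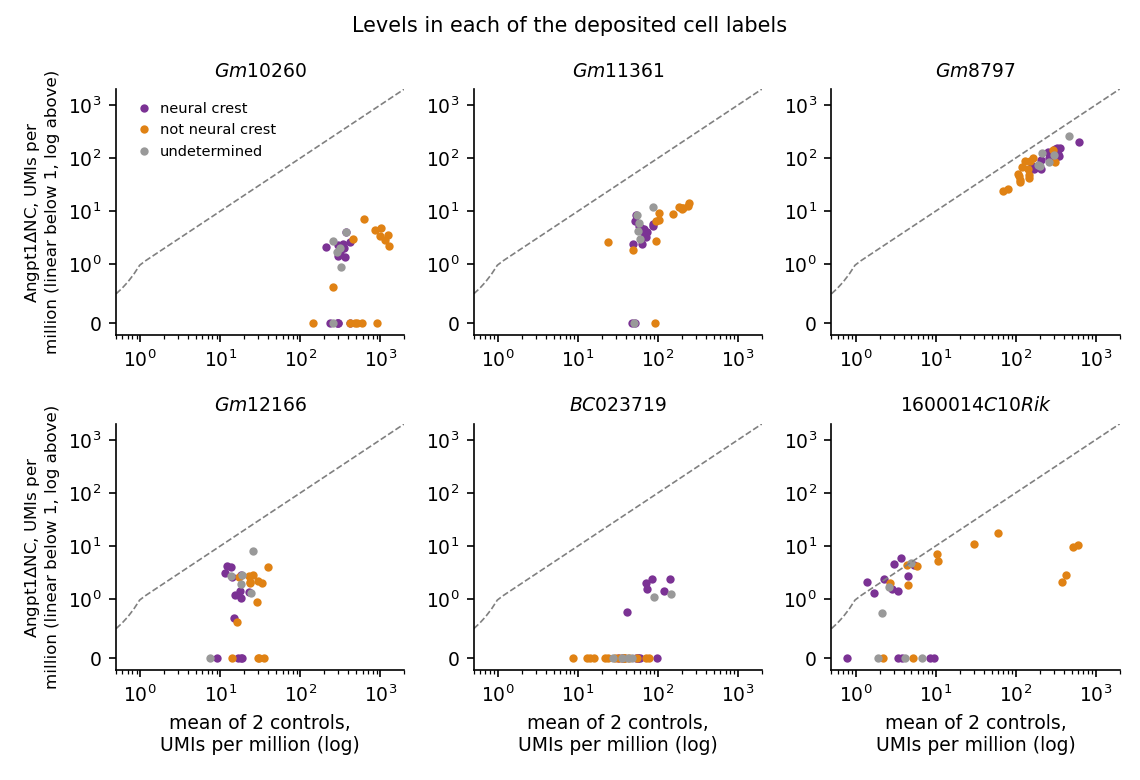
Level in *Angpt1*ΔNC (CPM, linear below 1 and log above) against the mean of the controls (log axis) for each gene, with 1 point per deposited label, coloured by lineage; the dashed line marks equal levels. Labels of both lineages fall below the line for the first 5 genes. For *1600014C10Rik* the points at high control levels lie far below it, and labels with 0 UMIs in *Angpt1*ΔNC lie at 0. Those at 0 had few control UMIs, such as 22 and 14 in label 19 and 2 and 4 in TM_11.

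How alike 2 genes were across labels depended on LEC, with its 3 and 1 control cells. Over 34 labels (without LEC, left out after the data were seen), the gene most correlated with *Gm10260* among 12586 genes was *Rps18* (Pearson r = 1.00 of log2 levels, mean of the controls). *Rps18* was also first for *Gm11361* (r = 0.99), *Ubb* for *Gm8797* (r = 0.98), *Sft2d1* for *Gm12166* (r = 0.83) and *A930015D03Rik* for *BC023719* (r = 0.93). The points share libraries and depth, so these values are a description. With LEC included the source or similar gene stayed first for *Gm10260*, *Gm8797* and *BC023719*, while the leading genes of *Gm11361* were *Rpl23a*, *Rpl27-ps3* and *Gm11808* (r = 0.97 to 0.95), with *Rps18* at rank 1186 (r = 0.56), and those of *Gm12166* were *Nrbf2*, *Pmm2* and *Nubp1* (r = 0.92 to 0.90), with *Sft2d1* at rank 1323 (r = 0.56). For *1600014C10Rik* they included *Krtcap3* and the epithelial keratin *Krt14* (r = 0.95 and 0.91), neither of which was called between genotypes in edgeR (adjusted p = 0.418 and 0.173).

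The share that a copy took of the UMIs assigned to it and its source was compared between lineages and between libraries. *Gm10260* made up 31.1% of the UMIs of *Rps18*, *Gm10260* and *Gm11361* in neural crest cells of control 1 and 31.6% in its other cells. The same shares were 35.1% and 36.1% in control 2 and 0.108% and 0.0694% in *Angpt1*ΔNC. *Gm12166* made up 69.8% and 72.0% of the UMIs of its pair in neural crest and other cells of control 1, 58.6% and 57.4% in control 2 and 5.43% and 4.80% in *Angpt1*ΔNC. *Gm8797* made up 5.90%, 3.40% and 2.43% of its pair in control 1, control 2 and *Angpt1*ΔNC, so that the controls differed more from each other than control 2 did from *Angpt1*ΔNC. Between labels this share ran from 3.66% (label 18) to 9.16% (SC) in control 1, from 2.68% (SC) to 6.01% (label 23) in control 2 and from 1.74% (label 19) to 4.00% (SC) in *Angpt1*ΔNC, so it varied widely between labels within each library.

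The source and similar genes did not differ in 1 common direction. *Rps18* was at 1032 and 1043 CPM in the controls and at 2695 in *Angpt1*ΔNC, a log2 difference of 1.52 (SE 0.125) that did not pass the threshold in edgeR's genotype fit over 15901 genes (adjusted p = 0.0682), in which 0.0818% of genes were called (0.0377% lower and 0.0440% higher). Summed with both copies, the *Rps18* group was at 1681, 1788 and 2705, a log2 difference of 0.78. *Sft2d1* was at 10.3, 13.7 and 34.8, a log2 difference of 1.67 (SE 0.225, adjusted p = 0.0971 in edgeR), while the sum of *Sft2d1* and *Gm12166* was at 35.3, 31.9 and 36.7. The low *Gm12166* and the high *Sft2d1* of *Angpt1*ΔNC thus summed to nearly the level of the controls, with a log2 difference of 0.27 (SE 0.115). DESeq2 called *Rps18* and *Sft2d1* higher (adjusted p = 3.60e-16 and 7.65e-08).

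*Ubb* and *A930015D03Rik* differed in the other direction. *Ubb* was at 3661 and 4620 in the controls and at 2743 in *Angpt1*ΔNC, with adjusted p = 0.311 in edgeR, and adding *Gm8797* left the log2 difference nearly the same (−0.45 and −0.48). *A930015D03Rik* was at 16.5, 21.2 and 5.94, a log2 difference of −1.53 (SE 0.243, adjusted p = 0.110 in edgeR), called lower by DESeq2 (adjusted p = 1.50e-05), and the sum with *BC023719* went from 63.1 and 67.6 in the controls to 6.35. *H2-T22* was at 30.5, 19.3 and 35.5 (adjusted p = 0.271). The lineage difference was not called in edgeR for *Rps18*, *Ubb*, *Sft2d1* or *A930015D03Rik* (adjusted p = 0.941, 0.751, 0.927 and 0.396).

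**Figure D5:**
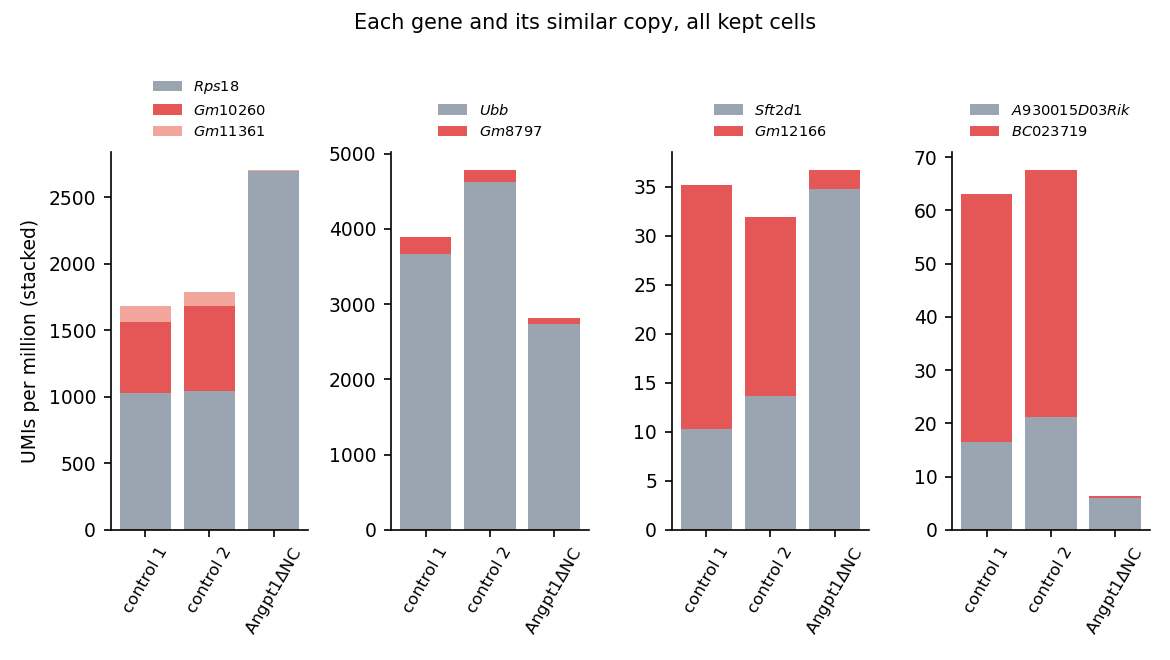
Stacked CPM, all kept cells, of each source or similar gene (grey) and the copies described here (red shades) in control 1, control 2 and *Angpt1*ΔNC; each panel has its own linear axis from 0. The *Sft2d1* pair sums to 35.3, 31.9 and 36.7, whereas the *BC023719* pair sums to 63.1, 67.6 and 6.35.

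Genes of the same families and symbols gave the setting for these values. Of 83 cytosolic ribosomal protein genes tested, 78 had a positive log2 difference and none was called in edgeR (49 higher and 1 lower at an unadjusted p below 0.05; 9 genes other than the 6 were called in all), with a median of 0.50 against −0.02 over all genes. *Rps18* ranked second of these 83. These sums mix cell types in unequal numbers, with 414, 507 and 641 cells in the epithelial label 4 and 387, 499 and 54 in label 19, and *Rps18* was higher in surface epithelium than in neural crest cells (2075 against 547 CPM in control 1). Within neural crest cells *Rps18* was at 547, 592 and 1450 CPM in control 1, control 2 and *Angpt1*ΔNC. It was at 1605, 1746 and 4005 in cells outside the lineage and at 2075, 2187 and 4663 in surface epithelium. The part of cell composition in the differences of the 83 genes was not tested. Among 744 other genes with Gm symbols, 595 with Rik symbols and 71 with BC, AI, AU or AW symbols none was called, with medians of 0.00, −0.05 and −0.04. At an unadjusted p below 0.05 there were 87, 46 and 2 lower and 88, 66 and 7 higher, respectively. Over all 15895 genes tested other than the 6, 1721 were lower and 1658 higher at that p in edgeR. Ranked by *Angpt1*ΔNC level relative to the controls among 211 such genes with at least 500 UMIs in each control, the 6 genes held the ranks 1, 2, 3, 5, 8 and 16. The first outside them, named after its value was seen, was *Gm10320*, at 30.8 and 42.1 CPM in the controls and 1.52 in *Angpt1*ΔNC.

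Of the nearest tested neighbours on the chromosome, some were low in *Angpt1*ΔNC and others were not. *Adam19*, 3.67 kb from *Gm12166*, was at 13.9, 13.8 and 14.0 CPM (adjusted p = 0.525 in edgeR), and *Arhgef28*, beyond *Gm10260*, at 5.82, 4.13 and 5.49 (adjusted p = 0.547). *Nrsn1*, a neighbour of *Gm11361*, was at 0.883, 0.647 and 0.0902 (log2 difference −2.91, adjusted p = 0.117). *Ccne1*, on one side of *1600014C10Rik*, was at 4.96, 5.41 and 2.84 (log2 difference −0.73, adjusted p = 0.185). *Plekhf1*, on the other side and 19.4 kb from *1600014C10Rik*, had 2658, 2410 and 806 UMIs (log2 difference −1.27, SE 0.143, adjusted p = 0.0797). Both neighbours of *BC023719* had few UMIs in *Angpt1*ΔNC, with 188, 166 and 0 for *Gm8909* (adjusted p = 0.0622 in edgeR; at most 2.48% of the pooled controls by the exact interval) and 32, 37 and 2 for *Gm6034* (adjusted p = 0.113; 6.86% of the pooled controls, exact interval 0.814 to 25.7%). None of the 12 neighbours was called between genotypes in edgeR, where 5 had an unadjusted p below 0.05. Of all 15895 genes tested other than the 6, 3379 had such a p. DESeq2 called *Gm8909* and *Plekhf1* lower (adjusted p = 3.59e-04 and 4.94e-06).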

How the data were processed

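Cells from 3 libraries (2 control, 1 *Angpt1*ΔNC) were counted with Cell Ranger, version 2.1.1 in the submitters' processing notes and 3.0.2 in the matrix headers, on build mm10, and the authors kept and labelled cells with Seurat 3.1.3 after removing doublets. The deposited matrices hold raw UMI counts. The deposited tables of integrated natural log values gave only the labels. Lineage sets were drawn from the cell types that the authors gave to the labels, the tissues that recombined with Wnt1Cre in their reporter mice, and textbook embryology. Labels 8, 10, 17, 18, 19 and 21 were left undetermined. Label 8 was left there although the paper names labels 8 and 9 alike as melanocytes, and label 9 was set as neural crest. How reads matching several genes were treated is not given in the sources used here, so a gene and a near-identical copy are uncertain singly. The 6 genes, lists and tests were chosen with earlier results of these data known. Named besides them were up to 3 similar genes (BLAST+ 2.17.0, GENCODE M21, in which 30934 of 31053 identifiers were found), the nearest tested gene on each side, the 3 genes most correlated over labels, and lists by symbol. Some of these are not reported here.

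Sums of counts per library, over genes with at least 50 UMIs, were tested with edgeR 4.0.16 (TMM factors) in R 4.3.3, with DESeq2 1.42.0 as an alternative, after tests on simulated data. Each library pools mice, so p-values do not measure the spread between mice. In the genotype fit the spread came from the control pools alone, as the *Angpt1*ΔNC pool had no replicate. In the interaction test the library was a block, which took out level differences between pools. Its p-values rest on how the difference between lineages varied between the control libraries. Each SE given here was derived from the edgeR test, as the absolute log2 difference divided by the square root of its F statistic. Intervals (95%) came from scipy 1.17.1.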

Additional observations from a re-analysis of the deposited data

Results flagged for a closer look

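For *1600014C10Rik* the ratio of *Angpt1*ΔNC to control differed between lineages in the interaction test, with a log2 difference of 5.43 (SE 0.318) between neural crest and other cells. The gene was chosen for its loss over all kept cells. There, 10389 of 10549 UMIs of control 1 and 12611 of 12776 of control 2 were outside the lineage. That choice largely set the ratio outside the lineage, so the test is not independent of the choice. Neural crest cells held 3.21 and 3.13 CPM of *1600014C10Rik* in the controls, and nearly all control UMIs outside the lineage were from surface epithelium. The log2 difference thus sets epithelium against cells with little of the transcript. For *Angpt1*, the targeted gene, the same difference was −5.83 (SE 0.559), in the opposite direction. Cells outside the neural crest held 36, 22 and 11 *Angpt1* UMIs in control 1, control 2 and *Angpt1*ΔNC, so the ratio there rests on few counts.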

How the results depend on the processing

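No paired analysis was possible for the genotype fit because the groups share fewer than 2 replicate numbers. The lineage fit had the library as a block, and without the replicate block the difference of *1600014C10Rik* was 5.45 with adjusted p = 0.110 in edgeR, and 0 genes were called (1342 at an unadjusted p below 0.05). Its adjusted p was 0.00162 with RLE factors, 4.93e-04 with no filter, 0.0104 with the wide neural crest labels, 0.0312 for TM1 to TM11 against surface epithelium and 7.33e-35 in DESeq2. Genes called in that fit numbered 116 with RLE factors, 154 with no filter and 143 in DESeq2, against 31. For *Gm8797* the sign of its small difference turned with the wide labels (0.03) and for TM1 to TM11 against epithelium (0.15). Leaving out a control moved *Gm12166* between −0.08 and 0.30; the cause was not tested. Other genes called between genotypes numbered 998 in DESeq2 and 0 with no filter (3116 at an unadjusted p below 0.05), against 9.

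With each cell thinned to 1000 UMIs, the percentages of control in neural crest and other cells were 0 and 0.463 for *Gm10260*, 7.68 and 5.13 for *Gm11361*, 15.3 and 13.1 for *Gm12166*, and 35.1 and 4.11 for *1600014C10Rik*, and 0.523 in neural crest cells for *BC023719*. With equal weight for each label they were 49.0 and 3.78 for *1600014C10Rik*, 5.60 and 6.02 outside the neural crest for *Gm11361* and *Gm12166*, and 1.10 in neural crest cells for *BC023719*. The wide labels gave 68.3 for *1600014C10Rik*. Levels (CPM) in *Angpt1*ΔNC cells not kept were 1.43, 3.95, 91.9, 0.238 and 3.05 for *Gm10260*, *Gm11361*, *Gm8797*, *BC023719* and *1600014C10Rik*; *Gm8797* was at 72.0 in male-typed and 63.6 in female-typed cells and at 73.1 after TMM factors, and *BC023719* at 0.616 in male-typed cells. The causes were not tested. Leaving out a control moved small differences across 0 for *Gm5086* (−0.10 to 0.05), *Pex2* (−0.04 to 0.08), *Thg1l* (−0.51 to 0.19), and *Nubp1* and *Mospd1* (both −0.17 to 0.07), none of them called.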
